A study of Mus musculus with 2 samples.

Results

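The 9 genes described here store iron, move it between cells or set the level of the proteins that do so. They are Fth1, Ftl1, Trf, Tfrc, Slc11a2, Slc40a1, Cp, Aco1 and Ireb2, chosen by gene symbol from a list of brain iron genes, and all 9 were found among the 55450 named genes of the series. Together they had 70 annotated transcripts of 141767. The tissue was hippocampus, labelled as a layer of it, from male B6CASTF1/J mice at 25 days of age, an F1 hybrid strain with no treatment or engineered allele in the labels. There was 1 group of 2 biological replicates and no control, so no condition was compared and no test between groups was possible. Both replicates carry the same donor identifier under separate tissue samples, so it is not known whether they came from separate animals, and the SDs given below may reflect handling alone.

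Iron enters brain cells mainly as iron bound to transferrin, which is taken up by the transferrin receptor and released from the endosome through the divalent metal transporter. Iron that is not used is stored inside ferritin, a hollow shell of heavy and light subunits, and leaves the cell through ferroportin with the help of a ferroxidase such as ceruloplasmin. The iron regulatory proteins bind a hairpin in mRNA, the iron-responsive element, when iron is scarce. Binding near the 5′ end blocks translation of ferritin and ferroportin mRNA, and binding in the 3′ UTR stabilises transferrin receptor mRNA.

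The hairpins are shown here because they are the sequence by which these mRNAs are known to be read as a group. Transcripts of GENCODE M21 on mm10 were searched, on the transcript's own strand only, for a 27-base element made of 5 bases, a C, 5 bases, the loop CAGTGN, 5 bases and 5 bases. The inner 5 bases on each side had to pair, with G-T pairs allowed, and at least 3 of the outer 5 had to pair. Such an element was present in a UTR of 4 of the 9 genes, against 46 of 21901 protein-coding genes, or 0.210%. Ferritin, ferroportin and transferrin receptor mRNAs are known carriers of the element, so this share follows from the choice of genes. The element lay in the 5′ UTR of Fth1 (chr19:9982733-9982759, + strand), Ftl1 (chr7:45459780-45459806, - strand) and Slc40a1 (chr1:45925466-45925492, - strand). In Tfrc it occurred 4 times in the 3′ UTR, at chr16:32631220-32631246, chr16:32631599-32631625, chr16:32631664-32631690 and chr16:32631711-32631737 on the + strand. Capitals mark the loop.
Fth1: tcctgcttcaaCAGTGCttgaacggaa
Ftl1: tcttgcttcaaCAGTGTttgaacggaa
Slc40a1: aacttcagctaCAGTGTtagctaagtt
Tfrc element a: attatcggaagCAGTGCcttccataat
Tfrc element b: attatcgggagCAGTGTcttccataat
Tfrc element c: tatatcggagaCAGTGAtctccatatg
Tfrc element d: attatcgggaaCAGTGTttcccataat
Slc11a2 had no such element, but a 28-base form with 1 extra unpaired base on the 3′ side of the inner stem was found in the 3′ UTR of its transcript Slc11a2-205, at chr15:100395153-100395180 on the - strand. That form was searched for after the first result was seen, and 93 genes held it in a UTR, or 0.425%.
Slc11a2-205: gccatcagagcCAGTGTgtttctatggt
In Trf, Cp, Aco1 and Ireb2 neither form was found. These are matches of letters and paired bases, not measured binding.

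All 9 genes were detected, taken as a mean of at least 1 TPM (transcripts-per-million, a level per length within a library) in the RSEM gene table. For comparison, 59.1% of protein-coding genes and 27.5% of all annotated genes reached that level. At least 10 TPM was reached by 7 of the 9 genes, against 36.9% of protein-coding genes, and the exceptions were Slc40a1 and Cp. The levels spanned a wide range, with ferritin heavy chain far above the rest, ferritin light chain and transferrin next, the import and regulatory genes in the middle and the export genes lowest. Replicate 1 had 30617252 expected counts on named genes and replicate 2 had 35697450, and the 9 genes took 0.105% and 0.111% of them. The tissue expressed all listed neuron, astrocyte and oligodendrocyte markers, led by Syp and Snap25, Slc1a2 and Aldoc, and Mbp. Summed markers were lower for microglia, at 154 and 158 TPM, oligodendrocyte precursors, at 114 and 121 TPM, mural cells, at 55.6 and 53.3 TPM, and perivascular macrophages, at 3.25 and 2.60 TPM. Markers of hippocampal subfields were not examined. In these bulk samples, fewer cells of a type and less RNA per cell cannot be told apart.

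**Figure D1:**
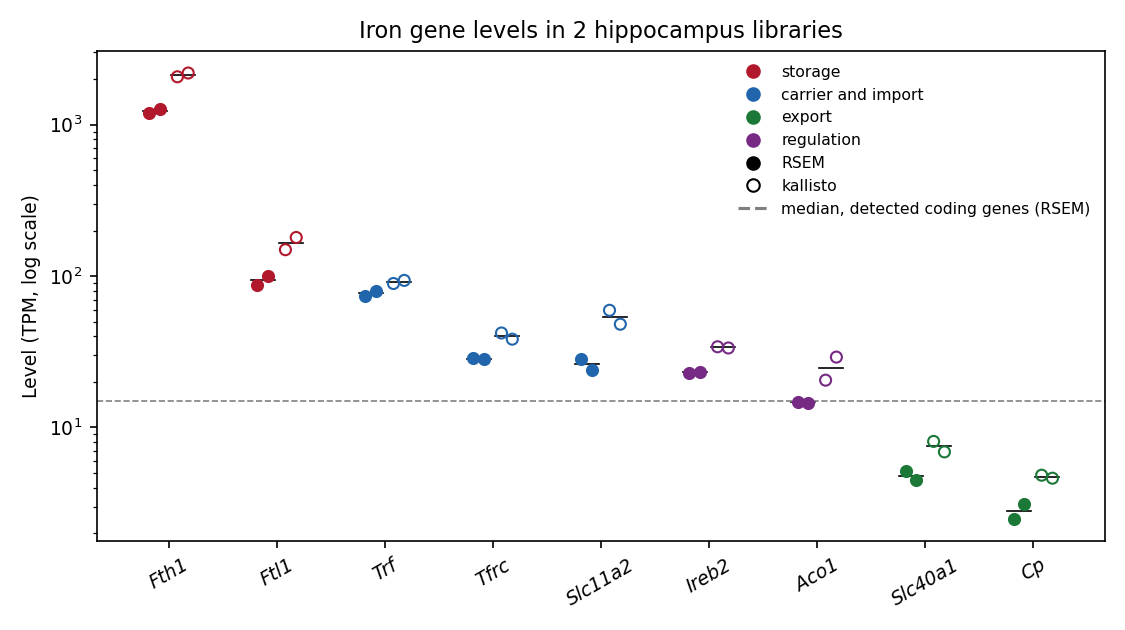
Levels of the 9 iron genes in TPM on a log axis, with 1 point per replicate (replicate 1 on the left of each pair), filled for RSEM and open for kallisto, and a short line at the mean of each pair. Fth1 sits at 1190 and 1263 TPM in RSEM, Cp at 2.50 and 3.10 TPM, and every gene is higher in kallisto; the dashed line is the RSEM median of detected protein-coding genes, 15.1 TPM.

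Ferritin mRNA was mostly that of the heavy chain. Fth1, the subunit with ferroxidase activity (chr19:9980598-9985098, + strand), had 1190 TPM in replicate 1 and 1263 TPM in replicate 2, a mean of 1227 ± 51.7 TPM (SD, n = 2). It ranked 15 among protein-coding genes. Its expected counts were 20540 in replicate 1 and 25628 in replicate 2, with a posterior SD under 1 count in each, so the reads were assigned to this gene with almost no ambiguity.
Ftl1, the light subunit that favours mineral formation inside the shell (chr7:45457944-45459884, - strand), had 86.9 and 100.3 TPM, a mean of 93.6 ± 9.53 TPM (SD, n = 2). It ranked 960, above 92.6% of detected protein-coding genes. Of the 9 genes it had the largest posterior SD relative to its count, 2.41% in replicate 1 and 1.94% in replicate 2. Trf followed with 1.48% and 1.27%, the 6 transport and regulation genes other than Trf had a posterior SD of 0, as did 82.2% of detected protein-coding genes, and 6.42% of those genes exceeded 1%.
The TPM ratio of Fth1 over Ftl1 was 13.7 in replicate 1 and 12.6 in replicate 2, a mean of 13.1 ± 0.786 (SD, n = 2), and the kallisto table gave 13.0. This ratio fell to 6.72 in RSEM and 4.94 in kallisto when the ferritin-like copies were added to each subunit. By counts with the copies added it was 6.73 in RSEM and 8.23 in kallisto. Its size thus depends on how the copies are counted and, with them added, on the table.

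The light chain has a near-identical copy that also held counts. Ftl1-ps1 (chr13:74399694-74407346, + strand), named as a pseudogene but annotated as protein-coding, had 81.0 and 80.6 TPM in RSEM, from 1415 and 1655 expected counts. Ftl1 itself had 1539 and 2093 expected counts. Light-chain totals here cover the genes whose symbol starts with Ftl. Of light-chain TPM in RSEM, Ftl1 took 49.2% in replicate 1 and 53.0% in replicate 2, and Ftl1-ps1 took 45.8% and 42.6%.
In kallisto the order was the other way round. Ftl1-ps1 had 265 and 266 TPM there, against 149 and 180 TPM for Ftl1, and Ftl1 took only 35.7% and 40.1% of light-chain TPM. By kallisto counts, which are not divided by length, Ftl1 took 50.9% and 55.8%. The lead of Ftl1-ps1 in kallisto is therefore present per length and absent in the counts.
Where they could be aligned, Ftl1-201 and Ftl1-ps1-202 differed at 4 of 910 aligned positions, with no gaps, which is 99.6% identity. Of the differences, 2 lay in the coding sequence, 1 in the 5′ UTR and 1 in the 3′ UTR. The 90 bases that hold both coding differences are shown because in the reference a read can tell the genes apart there. Capitals mark the differing bases, and variants of the hybrid strain at these bases were not examined. They lie at chr7:45458155-45458244 on the - strand for Ftl1 and at chr13:74407018-74407107 on the + strand for Ftl1-ps1.
Ftl1-201: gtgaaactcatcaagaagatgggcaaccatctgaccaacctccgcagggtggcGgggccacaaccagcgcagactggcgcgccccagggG
Ftl1-ps1-202: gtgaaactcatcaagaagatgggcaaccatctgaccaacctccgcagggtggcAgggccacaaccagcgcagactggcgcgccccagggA
Of the 869 windows of 100 bases in Ftl1-201, 525 occurred unchanged in another gene, or 60.4%, and 515 of these in Ftl1-ps1. The 5′ UTR element of Ftl1 is also present letter for letter in Ftl1-ps1-202. A read from a shared window cannot be placed by its sequence, so the split of light-chain reads rests on each program's estimate. By counts these estimates were close: Ftl1 took 50.7% and 54.5% in RSEM, beside 50.9% and 55.8% in kallisto. The tables thus differed in the light-chain shares per length more than in the counts.
Ferritin-like genes were taken by symbol, as those starting with Fth or Ftl and Ftmt, so copies under other names were left out. Among the 15 such genes besides Fth1 and Ftl1, 10 had 0 counts in both replicates. The 3 that reached 1 TPM were Ftl1-ps1, Ftl2-ps at 8.49 and 8.03 TPM, and Fth-ps2 at 4.38 and 1.47 TPM. Fth1 had no comparable copy in this set, with 99.6% and 99.9% of the TPM of Fth1 and the Fth-ps genes together. It shared 8 of 830 windows, all with Gm6977, a processed pseudogene outside the set, at 1.18 and 0.79 TPM in RSEM. Ftl1 also shared windows with Gm15590, likewise outside the set, at 0.15 and 0.03 TPM. Mitochondrial ferritin, Ftmt, was at 0 counts in both libraries, where the limit of 3 counts came to 0.0980 CPM for replicate 1 and 0.0840 CPM for replicate 2, from counting error only.

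**Figure D2:**
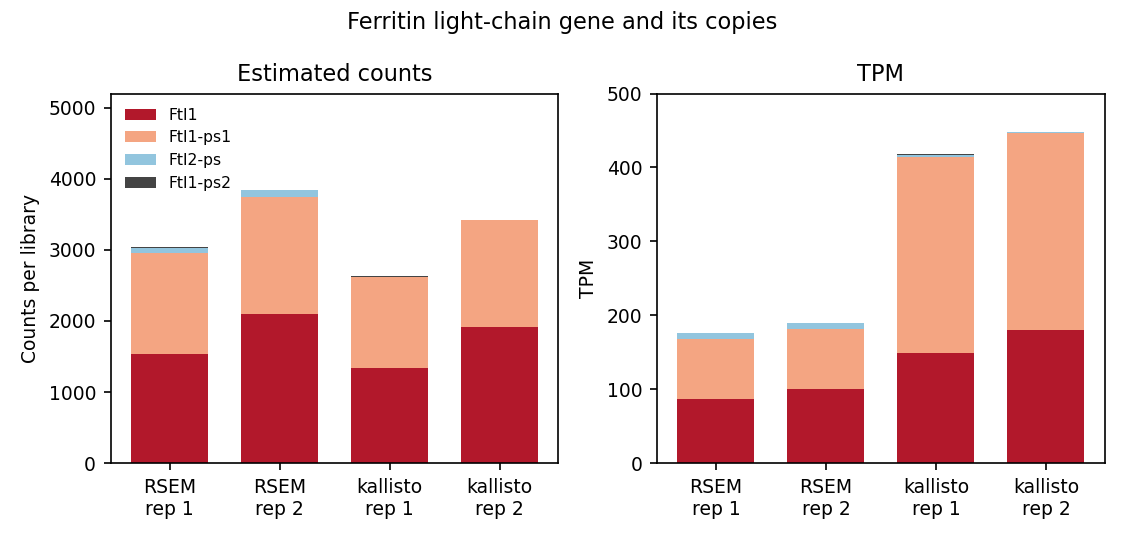
Ferritin light-chain gene Ftl1 and its copies as stacked bars per library, in estimated counts (left) and TPM (right). The Ftl1 part of the bars is 1539 and 2093 counts in RSEM, and the Ftl1-ps1 part is larger than the Ftl1 part in kallisto TPM, 265 and 266 against 149 and 180.

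Transferrin was the highest of the transport genes. Trf, the iron carrier that in brain is known to be made mainly by oligodendrocytes and choroid plexus (chr9:103204001-103230444, - strand), had 74.1 and 79.5 TPM, a mean of 76.8 ± 3.77 TPM (SD, n = 2). Summed myelinating oligodendrocyte markers were at 2233 and 2356 TPM and all 6 exceeded 10 TPM. Of 7 choroid plexus markers, 5 were under 1 TPM, with Ttr at 47.9 and 61.0 TPM and Kl at 3.77 and 3.78 TPM, for a summed 54.5 and 67.4 TPM. Both sums were higher in replicate 2, as was Trf. That direction was not particular to them, since summed neuron markers were also higher there, at 2594 and 2766 TPM. So were the sums for microglia, oligodendrocyte precursors and blood, while those for astrocytes, endothelial cells, mural cells and perivascular macrophages were lower. The choroid plexus sum was mostly Ttr, and the 5 markers under 1 TPM did not share a direction between replicates. The part of oligodendrocytes and choroid plexus in the Trf level was not tested.
Of the 4 hepatocyte markers, Serpina1a had 0 expected counts in each library, Alb had 2 in each and Apoa1 had 0 and 2, while Ttr, which is also in the choroid plexus list, had 1084 and 1623.
Trf shares 1912 of its 2472 windows, or 77.3%, with Gm20425, a gene annotated over the same stretch and strand (chr9:103190208-103230307). Gm20425 had 2.82 and 5.13 TPM in RSEM, and 7.30 and 9.65 TPM in kallisto. By counts it had 172 and 367 in RSEM, against 2503 and 3209 for Trf. In kallisto it had 313 and 491 counts, against 2614 and 3378 for Trf. In kallisto Trf had 89.3 and 93.6 TPM, the smallest ratio of kallisto over RSEM among the 9 genes. No 100-base window of the leading transcript of the other 6 transport and regulation genes occurred in another gene.

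Transferrin receptor and the divalent metal transporter had similar gene levels in RSEM TPM, but not in counts. Tfrc, the receptor for iron-loaded transferrin (chr16:32608920-32632794, + strand), had 28.7 and 28.4 TPM, a mean of 28.5 ± 0.205 TPM (SD, n = 2). Slc11a2, which carries ferrous iron across the endosomal and plasma membranes (chr15:100387898-100425072, - strand), had 28.2 and 24.1 TPM, a mean of 26.2 ± 2.94 TPM (SD, n = 2). The replicate ranges of this pair did not overlap, but by a narrow margin, and the order turned in kallisto, where Slc11a2 averaged 53.8 TPM and Tfrc 40.2 TPM. Which of the pair was higher in TPM therefore depends on the table. By counts, which are not divided by length, Tfrc was higher in both tables. The count ratio of Tfrc over Slc11a2 was 2.03 and 2.24 in RSEM, and 1.89 and 2.06 in kallisto. Between the leading RSEM transcripts alone, Tfrc-201 had 20.4 and 19.6 TPM in RSEM and Slc11a2-205 had 8.81 and 7.71 TPM.
Carrier exceeded receptor: the TPM ratio of Trf over Tfrc was 2.59 and 2.80, a mean of 2.69 ± 0.152 (SD, n = 2). Between their leading transcripts alone, Trf-201 over Tfrc-201, it was 2.17 and 2.48. By counts, which are not divided by the effective lengths of 1636 bases for Trf and 3738 bases for Tfrc, the ratio was 1.18.

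Export genes were the lowest of the 9. Slc40a1, ferroportin, the known cellular iron exporter (chr1:45908068-45926523, - strand), had 5.15 and 4.48 TPM, from 354 and 350 expected counts, a mean of 4.82 ± 0.474 TPM (SD, n = 2). Only 20.8% of detected protein-coding genes lay below it. Cp, the copper ferroxidase ceruloplasmin (chr3:19957054-20009145, + strand), had 2.50 and 3.10 TPM, from 188 and 218 expected counts, a mean of 2.80 ± 0.424 TPM (SD, n = 2), above 12.3% of detected protein-coding genes.
The exporter was well below the importer, with a TPM ratio of Slc40a1 over Slc11a2 of 0.182 and 0.186, a mean of 0.184 ± 0.00260 (SD, n = 2). In kallisto it was 0.140 and by counts 0.312, so the direction was the same in each and the size was not. The ratio of Slc40a1 over Cp was 2.06 in replicate 1 and 1.45 in replicate 2.
Summed endothelial markers were at 93.2 and 80.2 TPM, higher in replicate 1 as Slc40a1 was. Of these markers Pecam1 alone was higher in replicate 2, at 7.09 and 7.19 TPM. Astrocyte, mural and perivascular macrophage sums were also higher in replicate 1. Neuron, microglia and oligodendrocyte sums were higher in replicate 2. The part of any of these cell types in the Slc40a1 level was not tested.

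Both iron regulatory protein genes were expressed, with Ireb2 above Aco1. Aco1 encodes the cytosolic aconitase that binds RNA when it lacks its iron-sulfur cluster (chr4:40143081-40198338, + strand), and had 14.8 and 14.5 TPM, a mean of 14.7 ± 0.233 TPM (SD, n = 2). Ireb2 encodes the protein that is degraded when iron is plentiful (chr9:54863789-54912530, + strand), and had 23.0 and 23.2 TPM, a mean of 23.1 ± 0.0919 TPM (SD, n = 2). The TPM ratio of Aco1 over Ireb2 was 0.644 and 0.626, a mean of 0.635 ± 0.0126 (SD, n = 2). In kallisto the ratio was 0.602 and 0.870, still below 1 in both replicates but with a far wider spread. That spread lay in Aco1, at 20.5 and 29.2 kallisto TPM, while Ireb2 stood at 34.1 and 33.5.
In kallisto replicate 2 a short non-coding transcript of 410 bases, Aco1-203, took 24.2% of Aco1 TPM from 14.6 estimated counts, and it was at 0 in replicate 1.

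In RSEM the order was Fth1, Ftl1, Trf, Tfrc, Slc11a2, Ireb2, Aco1, Slc40a1 and Cp, and no neighbours in it had overlapping replicate ranges. With 2 replicates such a gap says little where it is narrow, as between Tfrc, Slc11a2 and Ireb2, whose means lay within 1.09-fold and 1.13-fold of the next. The median of the 9 genes was 26.2 TPM, against 15.1 TPM over detected protein-coding genes. All 9 had higher TPM in kallisto than in RSEM, with a median ratio of 1.70, but so did detected protein-coding genes in general, with a median ratio of 1.57 and a range from 1.22 to 2.31 for the central 90%. Trf lay below that range at 1.20 and 1.18 in the replicates.

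At the transcript level, 7 of the 9 genes had the same leading transcript in both replicates and both tables, against 66.2% of detected protein-coding genes with several transcripts. The exceptions were Slc11a2 and Cp. Fth1-201 took 97.7 ± 0.468% of Fth1 TPM in RSEM and 83.7 ± 1.47% in kallisto (SD, n = 2). The difference was in Fth1-203, a transcript of the same 546 coding bases with a 5′ UTR of 795 bases in place of 224, which took 0.01% in RSEM and 14.6% in kallisto. Both transcripts carry the iron-responsive element, and together the transcripts with it held 97.7% and 98.3% of Fth1 TPM in RSEM and 99.4% and 99.5% in kallisto.
Ftl1-201 took 93.1 ± 0.428% of Ftl1 TPM in RSEM and 82.0 ± 1.41% in kallisto (SD, n = 2), and the retained-intron transcript Ftl1-206 took 3.03% and 17.0%.
Slc40a1-201, the coding transcript with the 5′ element, took 88.1 ± 0.561% in RSEM and 80.3 ± 1.40% in kallisto (SD, n = 2). Transcripts with the element held 100% and 96.9% of Slc40a1 TPM in RSEM, counting the retained-intron transcripts Slc40a1-208 and Slc40a1-202, which have no annotated coding sequence. Slc40a1-201 alone held 88.5% and 87.8%.
Tfrc-201, whose 3′ UTR of 2461 bases holds all 4 elements, took 70.2 ± 1.47% of Tfrc TPM in RSEM and 73.3 ± 3.09% in kallisto (SD, n = 2). Tfrc-202 has a 3′ UTR of 238 bases and no element, and took 11.5% and 19.6% in RSEM and 14.6% and 15.7% in kallisto. The larger part of receptor mRNA by either table thus carried the elements.

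**Figure D3:**
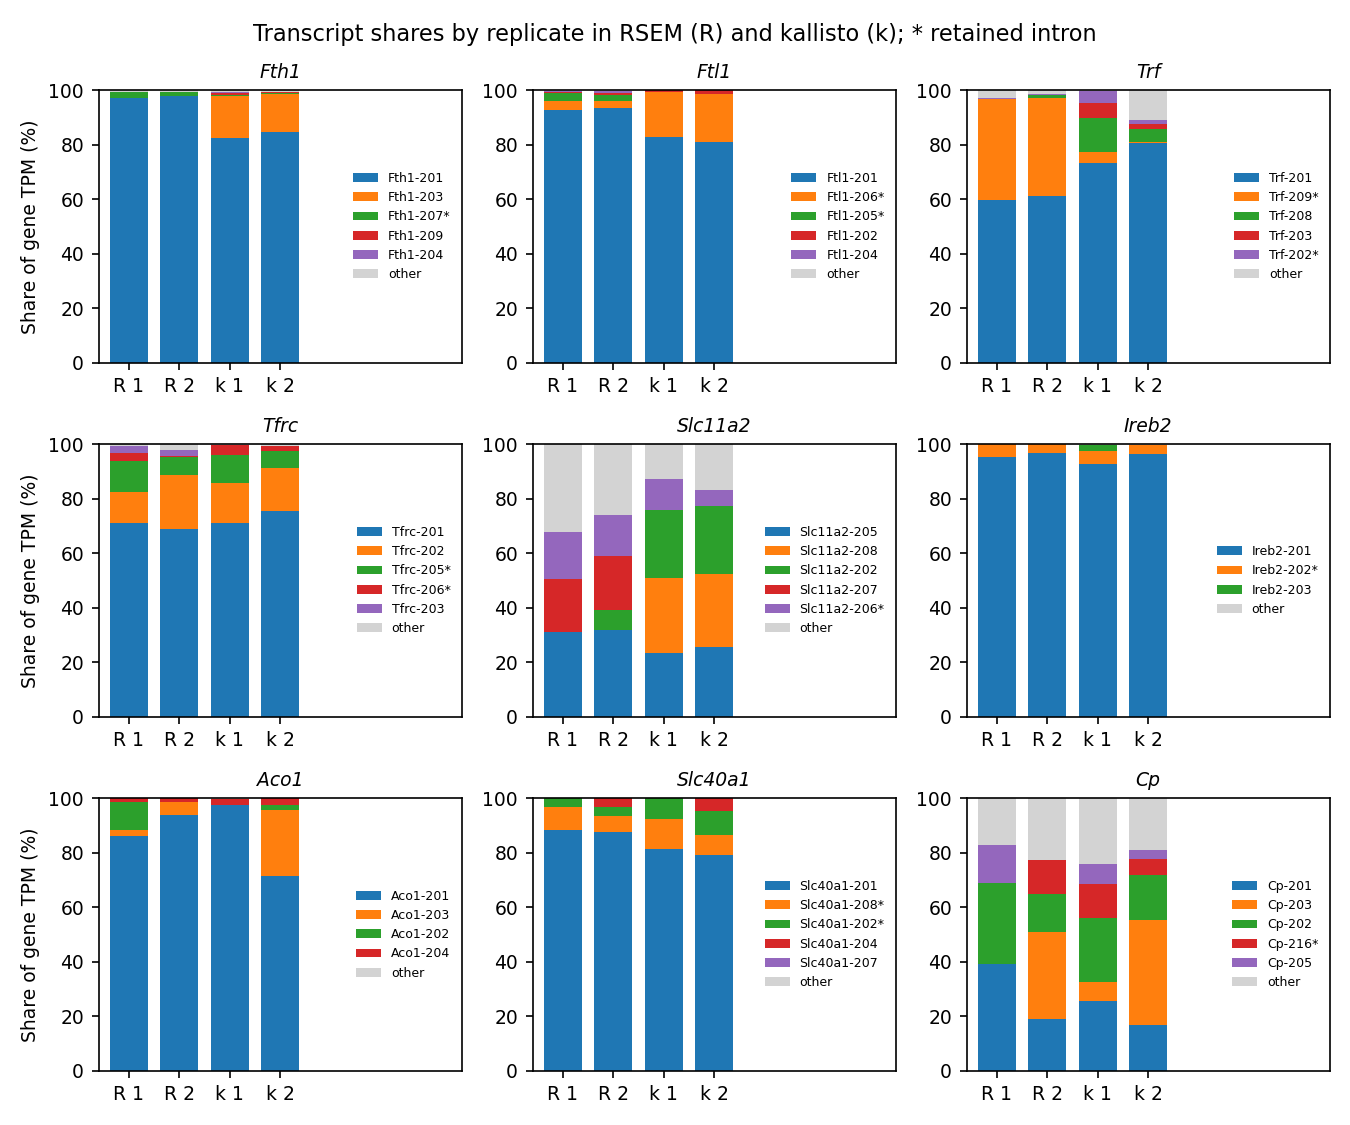
Share of each gene's TPM by transcript, in percent, with 1 bar per replicate for RSEM (R) and kallisto (k); up to 5 transcripts are coloured, the rest are grey, and an asterisk marks retained-intron transcripts. Fth1-201 and Ireb2-201 dominate their genes in each bar, whereas Slc11a2 and Cp are divided among many transcripts and Trf-209 is large in RSEM and nearly absent in kallisto.

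Slc11a2 was divided among several transcripts. Slc11a2-205, the transcript with the bulged 3′ element and 1683 coding bases, led in RSEM with 31.6 ± 0.589% of TPM and took 24.5 ± 1.40% in kallisto (SD, n = 2). In kallisto the lead went to Slc11a2-208, a fragment of 387 bases with 27.3% of TPM from 26.0 and 24.1 estimated counts, which RSEM put at 0. Conversely Slc11a2-207, of 389 bases, took 19.7% in RSEM and 0 in kallisto. By expected counts Slc11a2-205 led in both tables and both replicates.
Slc11a2-201, with 1704 coding bases, another 3′ UTR and neither form of the element, took 10.5 ± 1.81% in RSEM and 7.49 ± 1.48% in kallisto (SD, n = 2). The TPM ratio of Slc11a2-205 over Slc11a2-201 was 3.38 and 2.71 in RSEM, and 3.65 and 2.99 in kallisto. Unlike the shares of the short transcripts, this ratio was close in the 2 tables, with the transcript holding the bulged element higher in both replicates.
Trf-201 took 60.5 ± 1.02% of Trf TPM in RSEM and 77.2 ± 5.14% in kallisto (SD, n = 2). The retained-intron transcript Trf-209, only 433 bases long, took 36.6 ± 0.73% in RSEM from 192 and 235 expected counts, and 2.16 ± 2.42% in kallisto from 6.79 and 0.980 estimated counts. A large part of the Trf level in RSEM thus rests on a short transcript that the other table hardly fills.
Cp had Cp-201 in the lead in replicate 1, with 39.0% of RSEM TPM, and Cp-203 in replicate 2, with 32.0%. Cp-203 was at 0 in replicate 1 in RSEM and rested on 74.6 expected counts in replicate 2, so the leading transcript of Cp was not settled by these 2 libraries.
Aco1-201 took 90.1 ± 5.53% of Aco1 TPM in RSEM, and Ireb2-201 took 96.2 ± 0.934% of Ireb2 TPM (SD, n = 2).

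Between the replicates, 0 of the 9 genes lay more than 1.5-fold apart, against 293 of the 12714 genes that averaged 100 or more expected counts, or 2.30%. There was no test, since each replicate is 1 library. The log2 ratios of replicate 2 over replicate 1, on TMM-scaled counts, ran from -0.21 for Slc40a1 to 0.25 for Ftl1, with a median of 0.06, against 0.04 over all these genes. The central 90% of all these genes ran from -0.34 to 0.25, with Ftl1 at its upper edge and Slc40a1 inside it. Fth1 stood at 0.13, Trf at 0.17, Aco1 at 0.11, Ireb2 at 0.06, Tfrc at 0.05, Cp at 0.02 and Slc11a2 at -0.10. On deposited TPM the median was -0.01 over all these genes and 0.01 over the 9 genes. Scaling libraries to the spike-ins moved the median of all genes to -0.17 and that of the 9 genes to -0.15. The sign of a ratio near 0 thus depends on the scaling. Under each of these scalings the median of the 9 genes lay just above that of all genes. TMM and spike-in scaling use the same counts and shift all genes by nearly the same amount. This position therefore could not differ between those scalings.
Summed blood markers were at 1119 TPM in replicate 2 and 756 TPM in replicate 1, and all 5 were higher in replicate 2. Their part in the replicate ratio of Ftl1, which red cell precursors also express, was not tested.

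**Figure D4:**
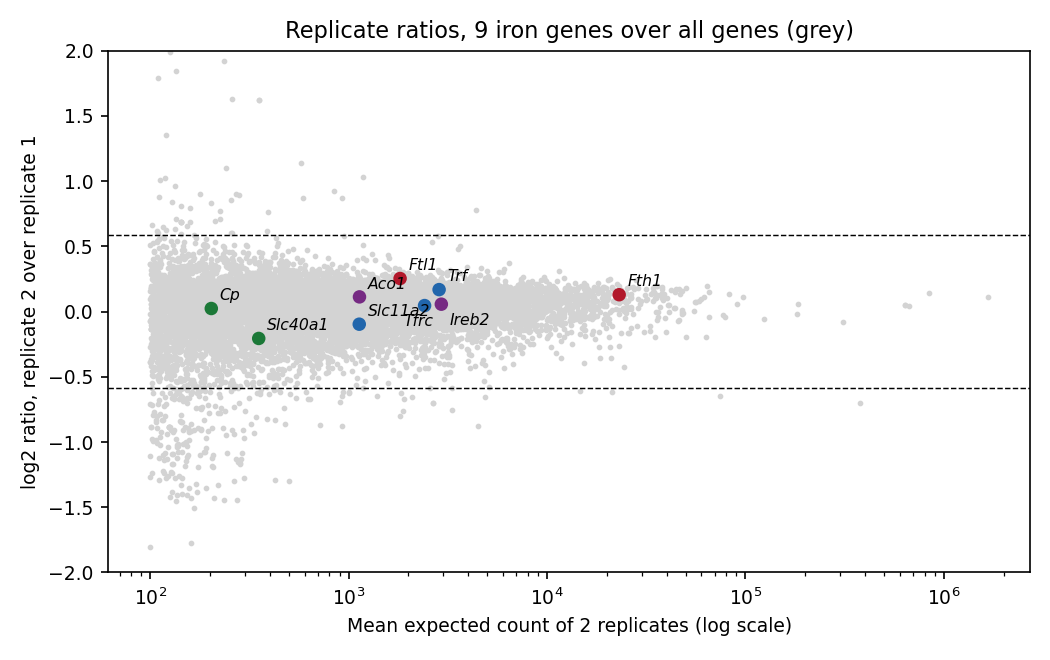
Log2 ratio of replicate 2 over replicate 1 on TMM-scaled counts against the mean expected count (log axis), with the 9 iron genes coloured by role as in the plot of levels and other genes in grey. The 9 lie between -0.21 and 0.25, inside the dashed lines at 1.5-fold; 7 other genes lie beyond the axis, which ends at a log2 ratio of 2 in either direction.

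Other genes of iron handling were read from a list of 55. Of these, 44 reached 1 TPM and 26 reached 10 TPM, with a median of 8.11 TPM, against 9 and 7 of the 9 genes above and their median of 26.2 TPM. Storage helpers and the ubiquitin ligase of Ireb2 were well expressed, whereas 5 of 7 hepcidin axis genes lay under 1 TPM.
Of 6 oxidase and storage genes, 4 reached 1 TPM. Pcbp2 and Pcbp1, chaperones that deliver iron to ferritin, had 200.0 ± 1.15 and 83.2 ± 5.20 TPM, and Ncoa4, the receptor for ferritin breakdown, had 53.2 ± 1.46 TPM (SD, n = 2). Heph, a membrane ferroxidase related to ceruloplasmin, had 2.61 and 2.82 TPM, close to Cp, and Hephl1 had 0 and 1 expected counts.
All 4 genes of the ligase that removes Ireb2 protein exceeded 10 TPM: its iron sensor Fbxl5 had 39.6 ± 1.10 TPM, Skp1a 201 ± 14.8, Cul1 46.6 ± 1.68 and Rbx1 56.4 ± 5.03 TPM (SD, n = 2).
Intake and reduction genes reached 1 TPM in 8 of 11 cases, with a median of 2.35 TPM. Mcoln1, a lysosomal cation channel, led with 34.9 ± 2.02 TPM, followed by Slc39a14, a transporter of iron not bound to transferrin, with 16.6 ± 0.721 TPM (SD, n = 2), and the reductase Steap4 was lowest at 0.03 and 0.04 TPM.
In the hepcidin axis, 2 of 7 genes reached 1 TPM: neogenin, Neo1, with 37.8 ± 0.226 TPM and the ligand Bmp6 with 2.08 ± 0.651 TPM (SD, n = 2). Hamp, which encodes hepcidin, the hormone that removes ferroportin from the membrane, had 0 counts in both libraries.
Haem genes reached 1 TPM in 9 of 10 cases, led by the haem transporter Slc48a1 with 66.7 ± 3.42 TPM and the synthase Alas1 with 64.7 ± 2.76 TPM, and Flvcr2 was lowest at 0.885 ± 0.276 TPM (SD, n = 2).
All 13 genes of mitochondrial iron and iron-sulfur clusters reached 1 TPM, led by Isca1 at 58.8 ± 5.52 TPM and Iscu, the assembly scaffold, at 50.8 ± 2.35 TPM (SD, n = 2).
All 5 other mRNAs listed for a known iron-responsive element reached 1 TPM, among them Cdc42bpa at 101 ± 4.86, Epas1 39.9 ± 3.48, Alas2, also counted among the haem genes, 4.16 ± 0.219 and Cdc14a 1.82 ± 0.163 TPM (SD, n = 2). The 27-base form was found in Alas2 and the bulged form in Epas1.

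**Figure D5:**
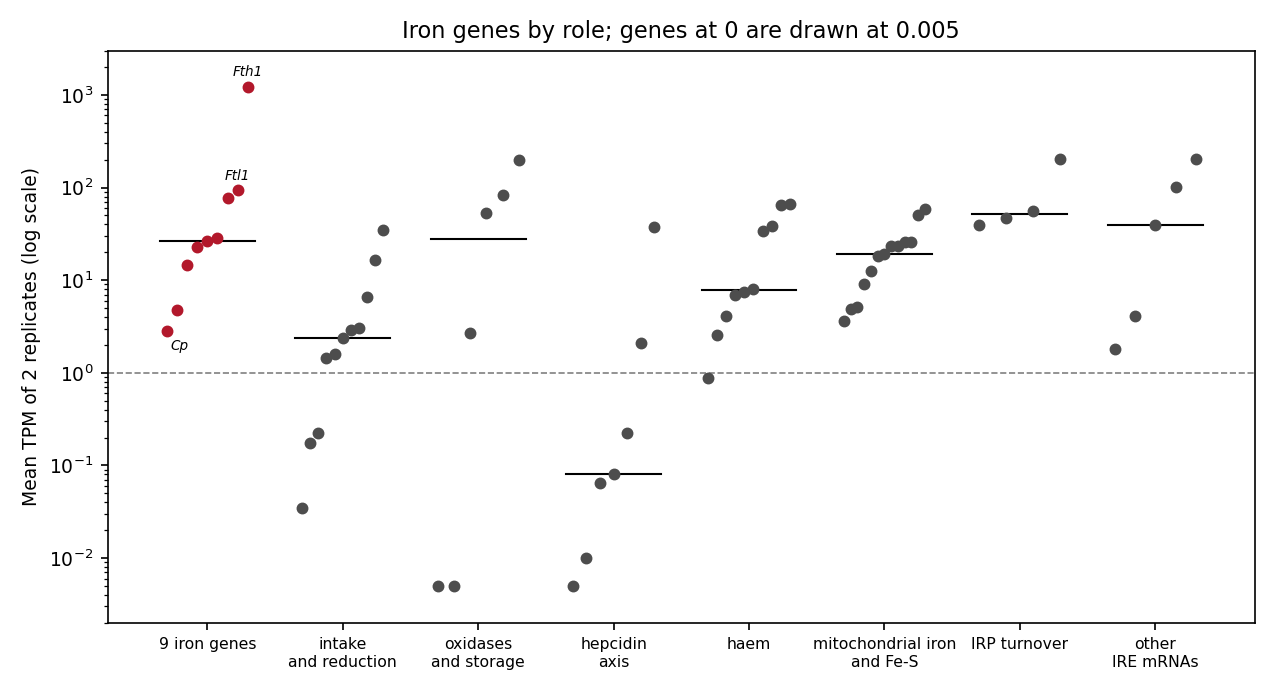
Mean TPM over 2 replicates on a log axis for the 9 iron genes (red, left) and the other iron genes by role (grey), with a line at each median, a dashed line at 1 TPM and names on the highest and lowest of the 9. Hepcidin axis genes have a median of 0.08 TPM, the lowest of the groups, and the ligase genes of Ireb2 turnover a median of 51.5 TPM.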

How the data were processed

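Total RNA libraries of 2 hippocampus replicates, each made from 300 ng with ERCC spike-ins per the labels, were analysed from the deposited tables, which refer to mm10 and GENCODE M21 per the notes deposited with the samples. Per the file headers, the gene table and one transcript table have the columns of RSEM, giving expected counts (estimates that need not be whole) and TPM, and the other transcript table those of kallisto, with estimated counts and TPM. The authors' TPM divides by an effective length and scales each library to the same sum, so short transcripts gain TPM relative to their counts. For the aligner and program versions, nothing is stated in the sources used here, so these are not given. The deposited RSEM transcript table also gives each transcript's percent of its gene, and the shares computed here from TPM differed from it by at most 0.206 points over 140 values. Gene symbols came from the transcript identifiers; 86 gene rows without one (0.0608% and 0.0449% of counts) and 26248 numbered rows (6 and 2 counts) stayed out, as did spike-ins (0.367% and 0.414%). Library totals were 30617252 and 35697450 expected counts, and intervals and floors (3 counts) cover counting error only.

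Levels are the deposited TPM; kallisto was summed per gene. The 9 genes, the lists and their alternatives were chosen with earlier results of these data known. Named genes, of which some are not reported here, are the 9, the 2 highest and the lowest of each list, all of a list of 6 or fewer, the 3 leading ferritin-like genes and each gene's 2 leading transcripts per table; further transcripts, Gm20425 and the marker genes Kl, Alb, Apoa1 and Serpina1a were named after their values were seen or as defining markers. For replicate ratios, expected counts were rounded and scaled by TMM factors (R 4.3.3, edgeR 4.0.16), adding a prior count of 0.5 and computing no p-values; this step was tested on simulated data. List summaries use log2(TPM + 0.1) where a log2 scale is named; these values derive from the deposited TPM. Posterior SD of the count is the deposited RSEM value. Sharing was measured as 100-base windows found letter for letter in transcripts of another gene. Sequences are from the GENCODE M21 reference transcripts, and variants carried by the hybrid strain were not examined. Python 3.11.15, pandas 2.3.3 and numpy 2.4.6 did the rest. Alternatives were DESeq2 1.42.0 size factors, deposited TPM, spike-in scaling, kallisto, counts, other minimums and pseudocounts, copies added, TPM over nuclear coding genes, and each replicate left out.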

Additional observations from a re-analysis of the deposited data

How the results depend on the processing

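Direction held in each of the alternatives tried for the 4 within-library ratios, but sizes moved. Aco1 over Ireb2 was 0.635 and became 0.736 in kallisto TPM and 0.386 in expected counts. Trf over Tfrc was 2.69 and became 2.28 in kallisto TPM and 1.18 in expected counts, and 2.83 with Gm20425 added, a setting chosen after seeing the data. Slc40a1 over Slc11a2 was 0.184 and became 0.140 in kallisto TPM and 0.312 in expected counts. Fth1 over Ftl1 was 13.1 and, with the ferritin-like copies added, became 6.72 in RSEM TPM and 4.94 in kallisto TPM. The median log2 TPM of the 9 genes was 4.71, 4.99 as a mean in place of a median and 5.33 in kallisto. The median log2 replicate ratio was 0.06, and -0.15 on spike-in scaling. The number of genes past 1.5-fold between replicates was 0 under TMM, DESeq2 size factors, deposited TPM, spike-ins, kallisto and no count filter; no p-value was computed, so no count at an unadjusted p can be given. All 9 levels were higher in kallisto, and 7 leading transcripts had a lower share there; restricting TPM to nuclear coding genes multiplied levels by 2.27 and 2.24. The cause of these shifts was not tested, except that expected counts leave out the division by length. Of 36 level and share values without 1 replicate, 36 moved by no more than the spread between replicates, which 2 replicates cannot exceed. Replicate ratios need both libraries and have no such value. No paired analysis was possible because there is 1 group. Cp had the fewest counts of the 9 genes, 188 and 218.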

Other observations

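The shares of retained-intron transcripts differed among the 9 genes and between tables. Trf had 37.6% and 36.4% of its RSEM TPM on such transcripts, against 8.51% and 1.99% of its kallisto TPM. Slc40a1 had 11.5% and 9.13% in RSEM and 18.7% and 16.2% in kallisto. Fth1 had 2.59% and 1.93% in RSEM and 0.815% and 0.654% in kallisto. Aco1 has no transcript annotated as a retained intron.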
